A study of Danio rerio with 4 samples.

Results

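The Hox genes of the zebrafish were followed in RNA from retinas dissected at 48 hours post fertilization. They were taken by name: every gene whose symbol in the authors' deposited comparison begins with hox, a cluster letter from a to d, a number and a copy letter. This gave 30 genes of the 26355 measured, with 54 of the 46226 transcripts. The series holds 4 libraries made by poly-A selection from 1 microgram of total RNA each. The 2 control libraries came from fish given the Id2aMM morpholino, and the 2 knockdown libraries from fish given the id2a morpholino, an antisense oligonucleotide directed at id2a, which encodes an inhibitor of basic helix-loop-helix transcription factors. No mutant allele is named for either group. The labels do not spell out the abbreviation MM, nor do they say whether the morpholino acts on translation or on splicing, or how many retinas went into a library. They call the replicates biological without saying that they came from separate clutches, so p-values measure the spread between these libraries only.

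Hox genes encode homeodomain transcription factors that give cells along the head-to-tail axis their regional identity. They lie in clusters, and genes with low paralogue numbers at one end of a cluster are active further forward in the embryo than those with high numbers at the other end. Their expression in the nervous system reaches from the hindbrain into the spinal cord, whereas the forebrain, from which the retina grows out, is a territory where they are normally silent. In the zebrafish the clusters occur in duplicated copies, written a and b after the number. In the authors' deposited table, the 30 genes fell into 7 clusters. The hoxaa genes were on chromosome 19, hoxab on chromosome 16, hoxba on chromosome 3, hoxbb on chromosome 12, hoxca on chromosome 23, hoxcb on chromosome 11 and hoxda on chromosome 9.

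The deposited counts summed to 50230438 and 53652256 in control replicates 1 and 2, and to 42980929 and 54710062 in knockdown replicates 1 and 2. Each alignment counted in full, so a read that hit several transcripts was counted for each of them. Levels of a transcript are given as CPM, its count scaled to the library's total and TMM factor, and a gene is shown by its most abundant transcript. A second scale, written split CPM, uses the deposited counts in which a read is divided among its transcripts, summed per gene. A read had 1.89 to 2.01 hits on average, so the split totals are smaller and a gene with no shared reads has a higher value in split CPM than in CPM. The scales are not compared with each other. Log2 CPM over all tested transcripts correlated at 0.967 between the libraries within each group and at 0.899 to 0.947 between groups. Of 21 tested retinal markers, 2 are given here. pax6a, an eye field gene, stood at 357, 343, 243 and 292 CPM in control replicates 1 and 2 and knockdown replicates 1 and 2. In the same order, six3b stood at 50.2, 45.4, 47.4 and 44.5 CPM. The retina list summed to 5332, 4021, 2241 and 3415 split CPM in that order. Values of pax6a and six3b alone do not check the retina label. The targeted gene, id2a, was not lower in the knockdown libraries: its more abundant transcript stood at 82.3 and 59.5 CPM in the controls and 84.8 and 70.6 CPM in the knockdowns (log2 fold change 0.13 ± 0.24 SE, edgeR adjusted p = 0.768). A morpholino that blocks translation need not change the level of its RNA, so this value does not check the labels.

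Hox transcripts were present in every library, but control replicate 1 held many more of them than the others. A gene was called detected where a transcript held at least 10 counts. By this measure 24 of the 30 genes were detected in control replicate 1, 14 in control replicate 2 and 17 in each knockdown library. In control replicate 1 that is 80.0% of the Hox genes, beside 78.4% of all genes. In the other libraries it is 46.7% to 56.7% of the Hox genes, beside 74.8% to 79.8% of all genes. These numbers include shared alignments. After reads were divided among their transcripts, 21 of the 30 genes held at least 10 reads in control replicate 1. The number was 10 in control replicate 2, and 12 and 14 in knockdown replicates 1 and 2. Of all genes, 69.1% to 75.0% reached this level, depending on the library. Between 2 and 5 Hox genes had no count at all in a library, which allows a level of up to 0.0543 to 0.0716 CPM (3 counts per library, counting error only). In bulk RNA, fewer cells of a type and less RNA per cell cannot be told apart.

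Not all of these counts belong to Hox genes alone. For each gene, the reads credited to it after splitting were set against the full count of its most abundant transcript. This share was at least 50% in 23 of the 30 Hox genes (76.7%), close to the 79.4% of all 20875 tested genes. It was under 20% in 5 Hox genes: 1.05% in hoxa13a, 1.76% in hoxa9a, 2.98% in hoxc3a, 4.98% in hoxb9a and 9.20% in hoxb8a. The levels of these 5 genes are therefore uncertain, since most of their alignments were shared with other transcripts. The remaining genes under 50%, hoxc10a and hoxd10a, held at most 8 counts in any library. The gene hoxb3a kept 62.2% of its alignments over all libraries, but 80.5% in control replicate 1, 36.1% in control replicate 2, 40.6% and 54.1% in the knockdowns. It was the only 1 of the 23 to fall under 50% in any library.

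**Figure D1:**
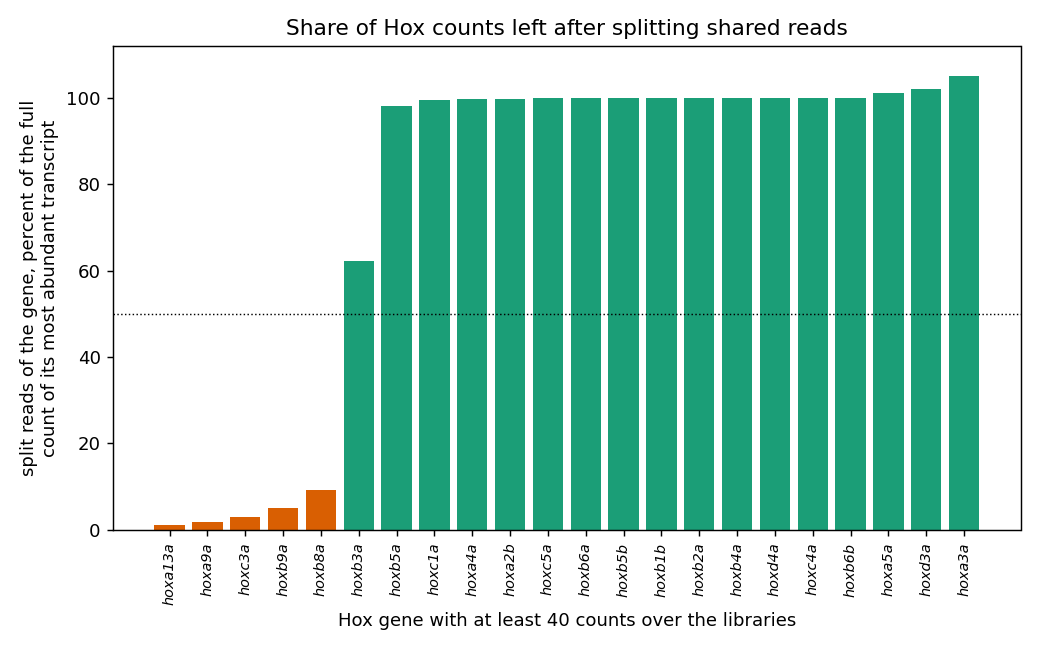
Bars give the reads credited to a Hox gene after splitting as a percentage of the full count of its most abundant transcript, pooled over the 4 libraries, for the 22 genes with at least 40 counts in all. The dotted line marks 50%; hoxa13a, hoxa9a, hoxc3a, hoxb9a and hoxb8a lie far under it, hoxb3a just above it, and the other genes near 100%, a value that can be passed because a gene's reads are summed over its transcripts.

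On the split scale, the 30 genes together reached 116.7 split CPM in control replicate 1, 11.8 in control replicate 2, and 24.1 and 19.4 in knockdown replicates 1 and 2. The sum in control replicate 1 was 9.87 times that in its fellow control and 4.84 times that in the next highest library. The 23 genes that kept at least 50% of their reads carried nearly all of it, with 113.9, 10.6, 23.3 and 18.0 split CPM in the same order. Without hoxb3a, whose share passed 50% through the libraries where it is high, the other 22 summed to 80.2, 6.55, 16.3 and 10.8 split CPM. With every alignment counted in full over all transcripts, the sums were 101.1, 25.6, 37.5 and 34.5 CPM, and control replicate 1 was again the highest. The spread between the control libraries was thus wider than any difference of either knockdown library from control replicate 2.

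**Figure D2:**
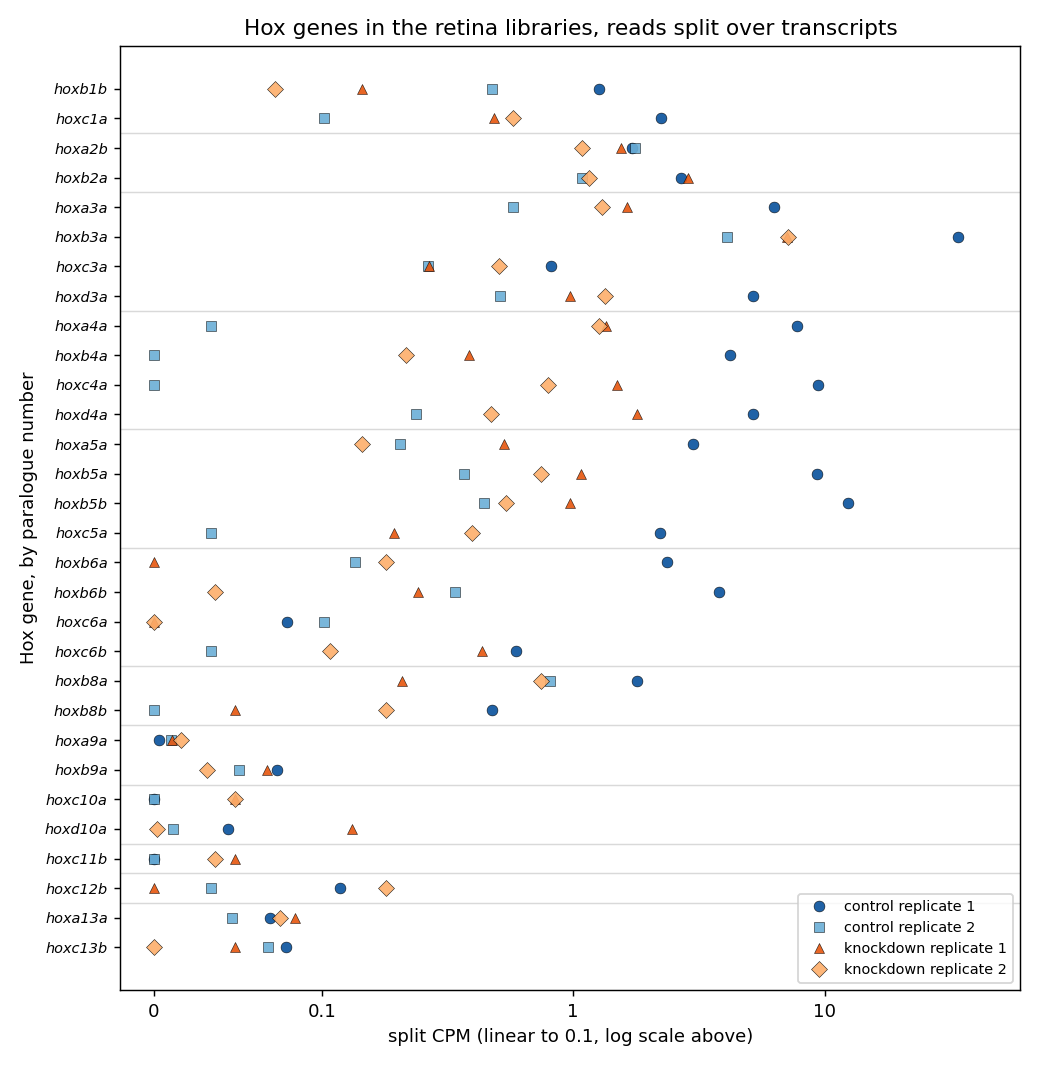
Each row is a Hox gene, ordered by paralogue number from 1 at the top to 13 at the bottom, and each symbol its split CPM in 1 library, on an axis that is linear up to 0.1 and logarithmic above. For most genes with numbers 3 to 6 the control replicate 1 symbol stands apart at the right, while the genes with numbers 9 to 13 lie near 0 in every library.

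The excess was not even along the clusters. Among the 23 genes, those of paralogue number 3 summed to 45.2 split CPM in control replicate 1, beside 5.16 in control replicate 2 and 9.68 and 9.77 in the knockdowns, most of it from hoxb3a. Without hoxb3a, whose share passed 50% through the libraries where it is high, number 3 gave 11.5, 1.09, 2.61 and 2.64 split CPM in that order. Number 4 gave 26.5, 0.272, 5.03 and 2.75 split CPM, and number 5 gave 26.9, 1.05, 2.77 and 1.83 split CPM in the same order. Number 6 gave 6.83, 0.612, 0.677 and 0.325 split CPM. These paralogue groups pattern the caudal hindbrain and the front of the spinal cord. At the front of the clusters, number 1 gave 3.50, 0.578, 0.628 and 0.650 split CPM, again highest in control replicate 1, whereas the genes of number 2 summed to 4.40, 2.85, 4.40 and 2.24 split CPM, with control replicate 1 and knockdown replicate 1 level. All 8 genes with numbers 9 to 13, those under the 50% share included, together gave 0.388, 0.220, 0.439 and 0.390 split CPM, and control replicate 1 was not the highest. These sums rest on only 9.8, 6.5, 9.1 and 10.8 split reads, so the order of the libraries is not read as a difference.

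**Figure D3:**
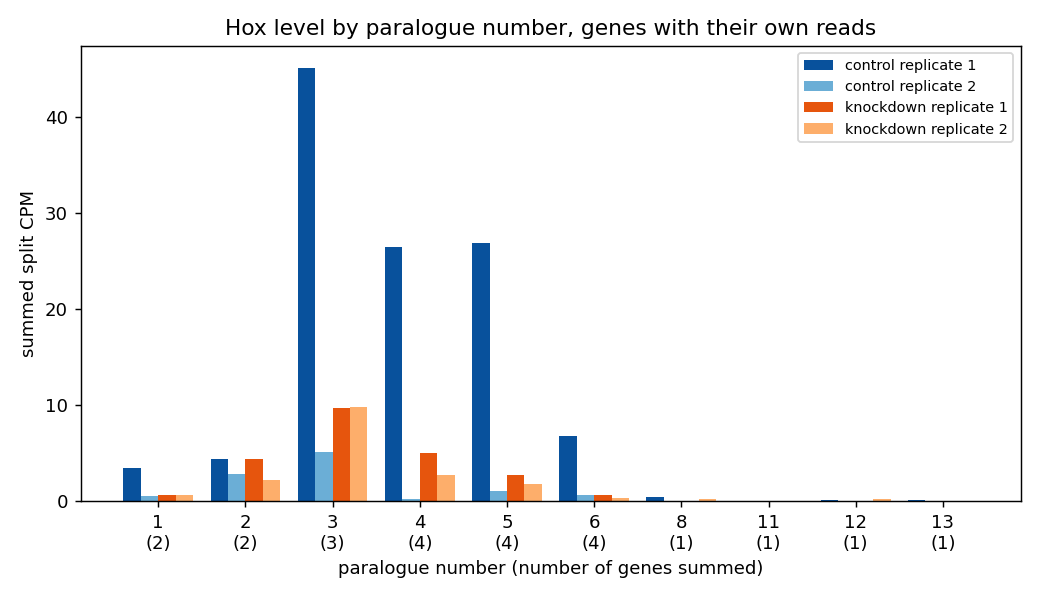
Bars give the summed split CPM of the 23 Hox genes that kept at least 50% of their reads, by paralogue number, with the number of genes in brackets and 1 bar per library. Control replicate 1 rises to 45.2 at number 3 and stays above 26 at numbers 4 and 5, while no other bar reaches 10. The bars at number 3 include hoxb3a, without which they would stand at 11.5, 1.09, 2.61 and 2.64.

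Among the genes of paralogue number 3, which in vertebrates act in the hindbrain segments next to the ear and in the pharyngeal arches, hoxb3a was the most abundant. Full counts of this gene (ENSDARG00000029263) ran at 1060, 332, 360 and 365 in control replicates 1 and 2 and knockdown replicates 1 and 2, or 21.4, 6.01, 8.59 and 6.62 CPM. The ratio of control replicate 1 to the next library was 2.50 (95% counting interval 2.21 to 2.82). After splitting, hoxb3a stood at 33.7, 4.08, 7.07 and 7.13 split CPM, so the gap was wider once shared reads were set aside. hoxa3a had 149, 17, 34 and 34 counts, or 3.01, 0.307, 0.811 and 0.616 CPM, and hoxd3a had 128, 15, 19 and 37 counts, or 2.59, 0.271, 0.453 and 0.671 CPM. In all 3 genes control replicate 1 was the highest and control replicate 2 the lowest, with both knockdown libraries between them. The fourth gene of this number, hoxc3a, stood at 10.2, 6.64, 6.30 and 8.63 CPM, but 0.815, 0.266, 0.267 and 0.507 split CPM after its shared reads were divided.

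The genes of paralogue number 4, whose domains begin at the back of the hindbrain, showed the widest gap between the control libraries. hoxa4a (ENSDARG00000057724) had 197, 1, 28 and 35 counts in control replicates 1 and 2 and knockdown replicates 1 and 2, or 3.98, 0.0181, 0.668 and 0.634 CPM. hoxc4a (ENSDARG00000070338) had 237, 0, 31 and 22 counts, or 4.79, 0, 0.739 and 0.399 CPM, and hoxb4a had 106, 0, 8 and 6 counts, or 2.14, 0, 0.191 and 0.109 CPM. Against the 3 counts per library that a count of 0 allows, control replicate 1 was at least 88.3-fold higher than control replicate 2 for hoxc4a and at least 39.5-fold higher for hoxb4a. hoxd4a had 131, 7, 37 and 13 counts, or 2.65, 0.127, 0.883 and 0.236 CPM, and its ratio of control replicate 1 to control replicate 2 was 20.9 (95% counting interval 9.87 to 53.1). hoxa4a, hoxb4a and hoxc4a thus had 0 or 1 count in control replicate 2, and hoxd4a had 7. The knockdown libraries held 6 to 37 counts of these 4 genes.

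The genes of paralogue number 5 mark the passage from hindbrain to spinal cord, and zebrafish hoxb5b is also known for its part in placing the heart field and the pectoral fin. hoxb5b (ENSDARG00000054030) had 312, 13, 20 and 15 counts, or 6.31, 0.235, 0.477 and 0.272 CPM, in control replicates 1 and 2 and knockdown replicates 1 and 2. Its ratio of control replicate 1 to the next library was 13.2 (95% counting interval 8.42 to 22.0). hoxb5a had 238, 13, 23 and 22 counts, or 4.81, 0.235, 0.549 and 0.399 CPM, and the same ratio was 8.77 (5.71 to 14.1). In each of the 2 genes, control replicate 1 alone was high and the other libraries lay within a narrow range. The remaining genes of this number, hoxa5a and hoxc5a, averaged under 0.5 CPM; hoxa5a had 76, 6, 10 and 4 counts and hoxc5a 56, 1, 4 and 11.

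Of the genes of paralogue number 6, active in the spinal cord and the trunk, hoxb6b had 96, 10, 5 and 1 counts, or 1.94, 0.181, 0.119 and 0.0181 CPM. Its ratio of control replicate 1 to control replicate 2, the next library, was 10.7 (95% counting interval 5.59 to 23.1). hoxb6a, which averaged under 0.5 CPM, had 60, 4, 0 and 5 counts. Both copies were thus high in control replicate 1 only, whereas hoxc6b had 15, 1, 9 and 3 counts and hoxc6a between 0 and 3. No gene of paralogue number 7 was among the 30.

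Paralogue numbers 1 and 2 cover the front of the Hox territory. Zebrafish hoxb1b (ENSDARG00000054033) acts early in hindbrain segmentation; it had 32, 14, 3 and 2 counts in control replicates 1 and 2 and knockdown replicates 1 and 2, and both controls lay above both knockdowns. hoxc1a had 57, 3, 10 and 16 counts, with control replicate 2 the lowest. hoxa2b, which in zebrafish gives the second pharyngeal arch its identity, had 44, 52, 32 and 30 counts, or 0.890, 0.941, 0.763 and 0.544 CPM. Here control replicate 1 did not stand apart, since its ratio to control replicate 2 was 0.946 (95% counting interval 0.618 to 1.44). hoxb2a, active in the hindbrain, had 68, 32, 59 and 32 counts, or 1.38, 0.579, 1.41 and 0.580 CPM. The first replicate of either group was about level and above the second, so the groups overlapped fully.

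Towards the back of the clusters lay 4 genes whose counts were mostly taken away by splitting. hoxb8a, which acts in the spinal cord, stood at 5.82, 2.98, 6.15 and 5.64 CPM, with control replicate 2 the lowest, but at 1.79, 0.808, 0.210 and 0.744 split CPM. hoxa13a, known for its role in the distal fins, stood at 4.17, 2.93, 2.22 and 3.61 CPM, but at 0.0694, 0.0465, 0.0840 and 0.0751 split CPM. hoxb9a stood at 0.728, 0.543, 0.596 and 0.399 CPM and at 0.0316 to 0.0736 split CPM. The groups overlapped for hoxb8a, hoxa13a and hoxb9a on the full scale. On the split scale hoxa13a and hoxb9a came to fewer than 3 reads in every library. hoxa9a was at 12 to 17 counts in full, with both knockdowns above both controls, and at under 1 read after splitting. hoxb8b, whose reads were its own, had 12, 0, 1 and 5 counts.

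Apart from hoxa13a, whose mostly shared alignments are described above, the genes with numbers 10 to 13, which specify the hind trunk and tail, were at or near 0. hoxc10a, hoxc11b, hoxc12b and hoxc13b held between 0 and 5 counts in any library, and hoxd10a between 2 and 8. A further 10 genes are named Hox only in the reference list of gene symbols, not in the authors' table, and are not members; their 13 transcripts held at most 6 counts in any library.

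By cluster, and over the 23 genes that kept at least 50% of their reads, the hoxba cluster summed to 52.3, 5.67, 11.4 and 9.43 split CPM in control replicates 1 and 2 and knockdown replicates 1 and 2. The hoxbb cluster gave 17.9, 1.26, 1.40 and 0.831, the hoxaa cluster 17.0, 0.816, 3.53 and 2.71, the hoxca cluster 13.9, 0.238, 2.18 and 1.77, and the hoxda cluster 10.4, 0.748, 2.76 and 1.81 split CPM. Control replicate 1 was the highest in each of these 5 clusters, which lie on 5 chromosomes. The hoxcb cluster, with 4 genes, gave only 0.790, 0.136, 0.532 and 0.325 split CPM. hoxa2b was the only member of the hoxab cluster.

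Per transcript length, on the authors' deposited RPKM scores averaged over the 4 libraries, the order of the genes was led by hoxb8a at 3.83, hoxb3a at 2.44, hoxc3a at 2.24 and hoxa13a at 1.54 RPKM, of which only hoxb3a kept at least 50% of its reads. Next came hoxc4a at 1.19, hoxb5b at 1.01, hoxa4a at 0.923 and hoxb5a at 0.882 RPKM, all genes with reads of their own. In control replicate 1 these 4 genes stood at 3.84, 3.51, 2.77 and 2.57 RPKM. In control replicate 2 they stood at 0, 0.132, 0.012 and 0.226 RPKM, so their place in the order rests on 1 library.

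Control replicate 1 was then set beside all genes, at a cut-off chosen after the data had been seen. Of the 30 Hox genes, 13 reached at least 1 split CPM in control replicate 1 and were at least 3-fold higher there than in the next library. Of all 26355 genes, 127 did so, or 0.482%. The 13 were hoxa3a, hoxa4a, hoxa5a, hoxb3a, hoxb4a, hoxb5a, hoxb5b, hoxb6a, hoxb6b, hoxc1a, hoxc4a, hoxc5a and hoxd3a. The same criterion was met by 0 of 30 Hox genes in control replicate 2 (0.212% of all genes), in knockdown replicate 1 (0.304%) and in knockdown replicate 2 (0.0266%). Few Hox genes reach that level in those libraries, so these counts of 0 are a description only. At 2-fold the count in control replicate 1 was 16 of 30, beside 1.97% of all genes, and at 5-fold it was 9, beside 0.140%.

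The 127 genes included retinal and neural tube genes alike, and those named here were chosen after their values were seen. Outside the Hox genes, the first 3 by ratio to the next library were the neuropeptide gene urp2, with 41 split reads in control replicate 1 and 0 elsewhere, a copy of the glycine transporter gene listed as SLC6A5 (1 of 2), and NXNL1, a photoreceptor gene. The SLC6A5 (1 of 2) copy stood at 3.77, 0.153, 0.0483 and 0.0903 split CPM in control replicates 1 and 2 and knockdown replicates 1 and 2, and NXNL1 at 1.26, 0.0680, 0 and 0. tlx3b, a homeobox gene of hindbrain and spinal sensory neurons, stood at 3.38, 0.449, 0.290 and 0.217 split CPM. cngb1a, which encodes a subunit of the rod channel, stood at 1.07, 0.340, 0.0967 and 0 split CPM.

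No Hox gene passed the test between knockdown and control. The counts of 37012 transcripts were compared with edgeR's quasi-likelihood test, with Benjamini-Hochberg adjustment and a threshold of 0.05. Of the 30 Hox genes, 20 had a transcript that passed the filter on low counts, and the other 10 were not tested. None of the 20 was called, beside 8.06% of all 20875 tested genes, of which 1189 were lower and 494 higher in the knockdown (5.70% and 2.37%). At an unadjusted edgeR p under 0.05 there were 2 Hox genes, hoxb1b and hoxb5b, beside 30.7% of all genes. DESeq2 also called 0 of 20, beside 15.9% of all genes. The smallest adjusted p was that of hoxb1b (log2 fold change -3.04 ± 0.92 SE, edgeR adjusted p = 0.083). In the authors' deposited table, likewise, 0 of 48 Hox transcripts had an adjusted p under 0.05, beside 8.89% of 43155 transcripts, and that table gives hoxb1b at -3.13 on the log2 scale (adjusted p = 0.112).

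The fold changes themselves leaned downward, and this rested on control replicate 1. Over the 20 genes the median log2 fold change was -1.19, with 17 negative. Over all tested genes the median was -0.04, with 52.3% negative. hoxb5b had the lowest value, with 3.27 ± 4.30 CPM in the controls and 0.374 ± 0.145 CPM in the knockdowns (SD, n = 2 in either group). Its log2 fold change was -3.13 ± 1.2 SE (edgeR adjusted p = 0.138). hoxb5a had a log2 fold change of -2.41 and hoxc4a of -2.08, while hoxb8a, at 0.42, and hoxa9a, at 0.46, had the highest. The hoxb8a value turned to -1.22 with reads split over transcripts and to -1.36 with split reads summed per gene. The SD over the controls exceeded their mean for hoxb5b, hoxb5a, hoxc4a, hoxa4a, hoxa3a, hoxd3a and hoxd4a alike. In only 2 of the 20 genes, hoxa2b and hoxb1b, did both controls lie above both knockdowns (32.3% of all genes), and in 1, hoxa9a, both knockdowns lay above both controls (29.8% of all genes). Of the untested genes, hoxb6b, hoxc6a and hoxc13b also had both controls above, and hoxc10a and hoxc11b both knockdowns above.

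Without control replicate 1, the median log2 fold change was 0.79 and 16 of the 19 genes tested were positive. The sign turned for 13 of the 19. hoxa4a went from -1.61 to 5.01, hoxd4a from -1.33 to 2.12 and hoxb5b from -3.13 to 0.68. No gene at all was called in that fit, of 21589. hoxb1b kept its direction at -2.19. Without control replicate 2, in turn, the median was -2.09 and 18 of 20 genes were negative; 3 of 24 tested Hox genes then passed, beside 1.21% of all genes, with hoxb5b at -4.08 (edgeR adjusted p = 0.043). Without knockdown replicate 1, 2 of 24 passed, beside 6.07% of all genes, including hoxb5b at -3.56 (edgeR adjusted p = 0.017). Without knockdown replicate 2, 1 of 23 passed, beside 14.1% of all genes. When 1 library stands alone in its group, its spread is assumed to be that of the other group. The signs of the fold changes over all genes were not computed for the fits with a library left out.

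**Figure D4:**
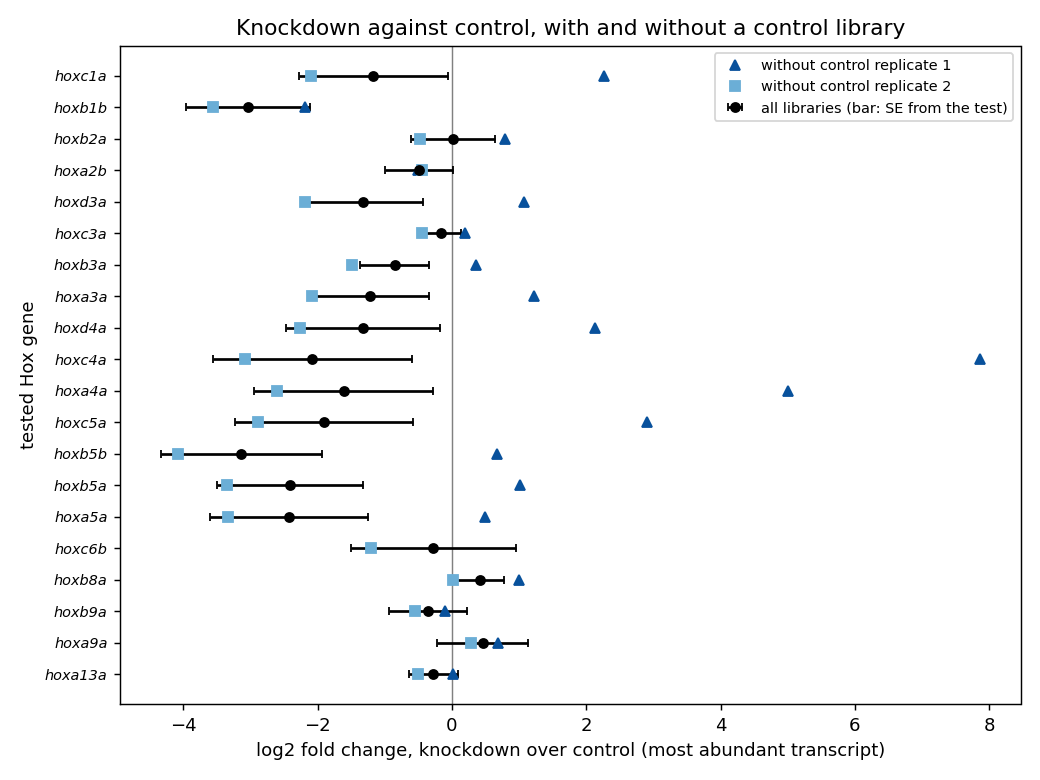
Points give the log2 fold change of knockdown over control for the most abundant transcript of each tested Hox gene, with the standard error for all 4 libraries, and triangles and squares the value without control replicate 1 or without control replicate 2; hoxc6b has no triangle because it was not tested there. Most triangles lie to the right of 0 and most squares to the left; the triangle of hoxc4a depends on the prior count, since control replicate 2 had no reads of it.

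Partners and regulators of Hox proteins were called about as often as genes in general, of which 5.70% were lower and 2.37% higher in the knockdown. Of 12 tested genes of the TALE class, homeodomain cofactors that bind DNA with Hox proteins, 0 rose and 1 fell. The most abundant, pbx4, stood at 470, 493, 396 and 452 split CPM in control replicates 1 and 2 and knockdown replicates 1 and 2. meis2b stood at 297, 183, 23.1 and 90.5 split CPM and did not pass the test (log2 fold change -2.13, edgeR adjusted p = 0.059). pbx3b was the member that fell (log2 fold change -1.76 ± 0.39 SE, edgeR adjusted p = 0.039). Of 33 tested Polycomb and trithorax genes, which keep Hox clusters silent or active, 1 rose and 1 fell. eed, a core subunit of the Polycomb complex that methylates histone H3, rose by 1.57 on the log2 scale (edgeR adjusted p = 0.025). phc2b fell by 1.26 (edgeR adjusted p = 0.030), a value of 1 of the 2 genes listed under that symbol. All 3 calls were lost without control replicate 1, where no gene was called, those of eed and phc2b also without control replicate 2 (adjusted p = 0.077 and 0.072), and that of phc2b without knockdown replicate 1 (0.055). The trithorax gene kmt2a stood at 331, 344, 273 and 348 split CPM and ash1l, a trithorax-group histone methyltransferase gene, at 289, 262, 244 and 268.

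Of 8 tested genes that act upstream of Hox genes in the early neural plate and tail bud, 0 rose and 1 fell, beside 2.37% and 5.70% of all genes. gbx2, a homeobox gene of the anterior hindbrain, stood at 60.2, 30.3, 3.65 and 11.2 split CPM and fell by 2.65 on the log2 scale (edgeR adjusted p = 0.033; 0.163 without control replicate 1 and 0.068 without control replicate 2). Its relative gbx1 stood at 6.40, 0.221, 1.04 and 0.650 split CPM, high in control replicate 1 and low in the others, as the Hox genes of number 4 were. cdx1b stood at 2.85, 2.23, 2.42 and 2.19 split CPM. Of 5 tested ParaHox and even-skipped genes, close relatives of the Hox genes, none passed the edgeR test at an adjusted p of 0.05; gsx1 stood at 4.35, 0.986, 6.38 and 2.09 split CPM and gsx2 at 3.83, 4.11, 7.98 and 4.70.

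Markers of other tissues that a dissected eye could carry were read beside the Hox genes. Of 20 tested markers of hindbrain and spinal cord, 11 were at least 2-fold higher in control replicate 1 than in control replicate 2 (55.0%), beside 6.86% of all genes, and their median ratio was 2.08. Their summed level was 131.3, 84.5, 73.4 and 81.3 split CPM in control replicates 1 and 2 and knockdown replicates 1 and 2. As examples of markers high in control replicate 1, phox2bb and nkx6.1 were picked after their values were seen. phox2bb, a homeobox gene of hindbrain motor and autonomic neurons, stood at 7.76, 0.799, 1.38 and 0.668 split CPM. In the same order nkx6.1, of ventral neural tube progenitors, stood at 7.19, 1.33, 1.93 and 1.34. Not every marker was high in control replicate 1. ptf1a, which the retina uses as well, stood at 22.0, 26.7, 3.19 and 18.3 split CPM and barhl1a at 19.2, 22.9, 9.57 and 17.6. The motor neuron marker mnx1 was near 0, at 0.277, 0.136, 0.0967 and 0 split CPM. slc18a3a, the vesicular acetylcholine transporter of motor and other cholinergic neurons, was the member that fell (by 2.96 on the log2 scale, edgeR adjusted p = 0.036; 0.177 without control replicate 1 and 0.068 without control replicate 2). The part of hindbrain or spinal cord RNA in the Hox values was not tested.

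The lists differed in their values between the control libraries. The median log2 ratio of control replicate 1 to control replicate 2 was 4.0 over 14 tested Hox genes that had reads in both and kept at least 50% of them, 1.29 over the 5 ParaHox and even-skipped genes, 1.06 over the hindbrain and spinal cord list, 0.84 over the upstream regulators, 0.41 over the retina list and 0.09 over the forebrain list. It was 0.02 over the pectoral fin bud list, -0.38 over the list of neural crest and pharyngeal arch and -0.43 over that of trunk mesoderm and muscle. The 50% share was asked of the Hox genes only, not of the other lists. The 7 Hox genes under it summed to 2.80 and 1.19 split CPM in control replicates 1 and 2, a ratio of 2.34. The retina list summed to 5332 split CPM in control replicate 1 and 4021 in control replicate 2, and to 2241 and 3415 in the knockdowns. Between the groups, where 5.70% of all genes were lower and 2.37% higher in the knockdown, 13 of 15 tested epidermal markers fell, krt4 from 1261 and 1164 split CPM in the controls to 398 and 105 in the knockdowns. Of 18 muscle markers 0 rose and 1 fell, of 11 neural crest markers 0 rose and 1 fell, of 23 blood and endothelial markers 1 rose and 1 fell, of 20 hindbrain and spinal cord markers 0 rose and 1 fell, and of 21 retinal markers 2 rose and 3 fell. No forebrain or fin bud marker passed the edgeR test, of 15 and 5.

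**Figure D5:**
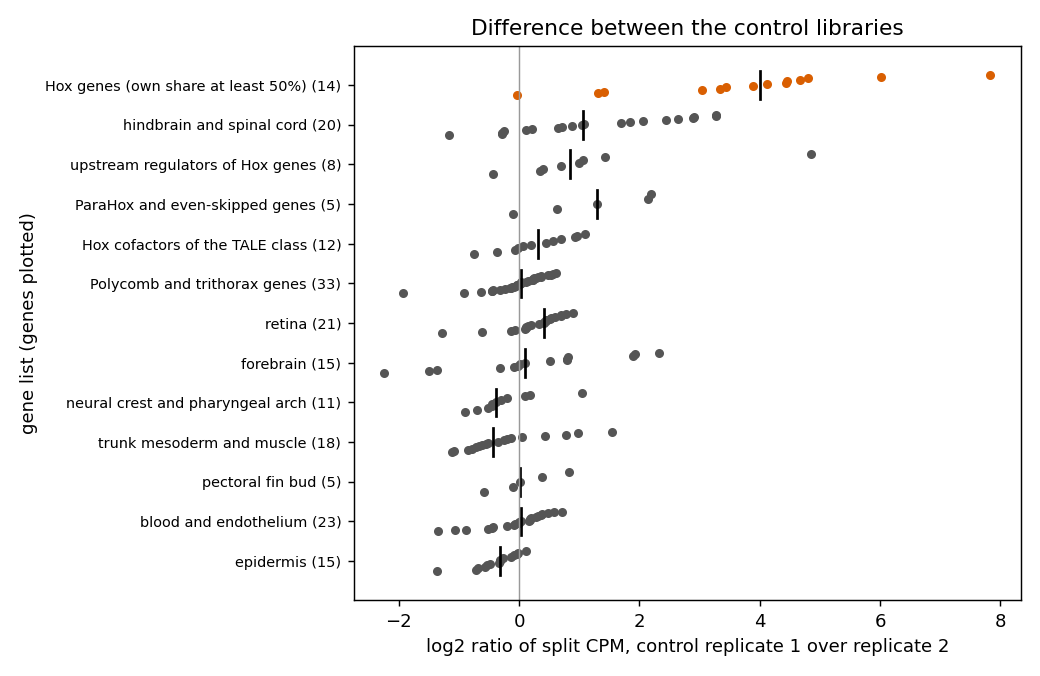
Each point is a gene and gives the log2 ratio of its split CPM in control replicate 1 to that in control replicate 2, by list, with the number of genes plotted in brackets and the median as a bar; only tested genes with reads in both libraries are shown. The Hox genes, in orange, have a median of 4.0, the ParaHox list 1.29, the hindbrain and spinal cord list 1.06, and the retina, forebrain and muscle lists lie between -0.43 and 0.41.

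Among the remaining 3 libraries, control replicate 2 was the lowest at paralogue numbers 3, 4 and 5. At number 3 it stood at 5.16 split CPM, beside 9.68 and 9.77 in the knockdowns, or at 1.09 beside 2.61 and 2.64 without hoxb3a. At number 4 the 4 genes summed to 0.272 split CPM in control replicate 2, from 1 hoxa4a count and 7 hoxd4a counts, beside 5.03 and 2.75 in the knockdowns. At number 5 it was 1.05 beside 2.77 and 1.83, and at number 6 it lay between the knockdowns, at 0.612 beside 0.677 and 0.325. With 1 control library left, these differences had no replicate on the control side.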

How the data were processed

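Poly-A RNA of dissected retinas was sequenced in 2 control and 2 knockdown libraries. Names of the deposited files point to bowtie and Ensembl 66 cDNA; a version and a build were not given in the sources used here. Tables deposited by the authors hold whole-number counts of alignments per transcript, per the file headers, for 1 mate or both, and estimated counts that divide a read among its transcripts. A deposited whole-series table holds a score equal to 1000 times the RPKM of both mates, as found from the values. The authors' deposited comparison gives log2 fold changes and adjusted p-values from DESeq, per the submitters' processing notes.

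Counts of 1 mate entered the quasi-likelihood test of edgeR 4.0.16 (R 4.3.3, TMM, filterByExpr, no block), with adjustment over 37012 transcripts of 20875 genes. A gene was called if at least 1 transcript passed, and is shown by its transcript with the highest mean count. Estimated counts were rounded before tests. Hox genes averaging at least 0.5 CPM get values per library. From each other list, the 2 most abundant members and up to 3 called members were eligible. Those that bear on a Hox result are given. Members outside that rule, among them phox2bb, nkx6.1 and mnx1, were named after their values were seen. So were Hox genes under 0.5 CPM and the other genes high in control replicate 1. The members, lists and tests were chosen with earlier results of these data known. Intervals and floors cover counting error only. Alternatives used DESeq2 1.42.0, limma 3.58.1, other filters, both mates, split reads, gene sums, a replicate block and each library left out. The edgeR step was tested on simulated data. No sequences are shown.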

Additional observations from a re-analysis of the deposited data

How the results depend on the processing

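With 2 libraries a group, low counts and shared alignments, single Hox fold changes are poorly determined. The 1683 genes called became 3313 with DESeq2, 3176 without a filter, 828 with reads summed per gene, 3812 at a threshold of 0.10 and 7 at 0.01, and ranged from 0 to 3056 with a library left out. The count of Hox genes called was 2 without a filter, 1 with reads split over transcripts (hoxb1b) and 1 at a threshold of 0.10, and ranged from 0 to 3 with a library left out. Without a filter this was 2 of 30 tested Hox genes, beside 12.1% of all tested genes. The smallest adjusted p of a Hox gene there was that of hoxb6b (edgeR adjusted p = 0.021), which the main fit did not test. With reads split over transcripts the count was 1 of 15, beside 12.1% of all tested genes (2310 of 19129). At the threshold of 0.10 it was 1 of 20, beside 18.3%. Deviations of same-numbered libraries from their group means correlated at -0.020 over 37012 transcripts. With 2 libraries a group, this value cannot show whether the replicate numbers pair the libraries. With the replicate block 2324 genes (11.1%) and 0 of 20 Hox genes were called, and hoxc6b turned to 0.092. Against the log2 fold changes of all libraries, hoxb2a turned to -0.052 with both mates, -0.036 with limma on scores and -0.010 with the stricter filter, and hoxb8a to -1.22 with reads split over transcripts and -1.36 with split reads summed per gene. With a library left out, log2 fold changes ran from -2.08 to 1.23 for hoxa3a, -2.61 to 5.01 for hoxa4a, -3.44 to 0.50 for hoxa5a, -0.67 to 0.042 for hoxa13a, -0.73 to 0.79 for hoxb2a, -1.49 to 0.36 for hoxb3a, -3.35 to 1.02 for hoxb5a, -4.08 to 0.68 for hoxb5b, -2.11 to 2.26 for hoxc1a, -0.44 to 0.19 for hoxc3a, -3.08 to 7.86 for hoxc4a, -2.89 to 2.91 for hoxc5a, -1.49 to 0.43 for hoxc6b, -2.19 to 1.07 for hoxd3a, -2.53 to 2.12 for hoxd4a and -0.081 to 0.41 for id2a. Without control replicate 1 no gene was called, and pbx3b, eed, phc2b, slc18a3a and gbx2 kept log2 fold changes of -1.14, 1.69, -1.10, -2.36 and -2.09 (adjusted p 0.159 to 0.177). The calls of eed, phc2b, slc18a3a and gbx2 were also lost without control replicate 2 (0.068 to 0.077), that of phc2b without knockdown replicate 1 (0.055), that of pbx3b with reads split over transcripts (0.060), and those of slc18a3a and gbx2 with reads summed per gene (0.053 and 0.051). The causes were not tested. At a detection level of 30 counts, 21 Hox genes were detected in control replicate 1, 7 in control replicate 2 and 9 in each knockdown library. The share of all genes at that level was not computed. The summed Hox level was 101.1, 25.6, 37.5 and 34.5 CPM in control replicates 1 and 2 and knockdown replicates 1 and 2. With only the most abundant transcript it was 83.5, 22.9, 32.4 and 30.7 CPM in that order. On the split scale, not compared with CPM, it was 116.7, 11.8, 24.1 and 19.4 split CPM. Over the genes keeping at least 50% of their reads it was 113.9, 10.6, 23.3 and 18.0 split CPM.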
